A study of Mus musculus with 8 samples.

Results

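The genes described here are 47 DNA repair genes of the mouse, grouped by pathway. They were chosen with earlier results of these data known, so shares set against all tested genes describe this list only. They comprise 26 genes of homologous recombination and the Fanconi pathway, 6 of end joining, 3 of mismatch repair, 6 of base excision repair and 6 of nucleotide excision repair. The array's annotation paired a probe set with 1 gene alone for 44 of the 47, of 13307 genes in the whole table. Bard1, Xrcc2 and Rbbp8 were not analysed here. Where a gene had several probe sets, the one with the highest mean over all arrays was used.

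Each gene was compared between primary mouse embryonic fibroblasts lacking both cryptochromes (Cry1-/- and Cry2-/-, Cry DKO) and wild-type (WT) fibroblasts, with 4 independent lines per genotype and 1 array per line. The Cry DKO lines lack both genes in every cell. All embryos were near C57BL/6J in background, reached by more than 7 backcrosses of mixed BL6/129 mice. All lines were untreated, unsynchronised and proliferating in medium with 10% serum at 3% oxygen. Each value therefore averages over all phases of the cell cycle and, in WT lines, of the clock.

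Homologous recombination repairs broken chromosomes from the sister copy and therefore works mainly after DNA has been replicated. The Fanconi pathway unhooks crosslinks between strands at replication forks and hands the break to recombination. End joining reseals breaks directly at any stage of the cycle. Mismatch repair corrects copying errors, base excision repair removes small damaged bases, and nucleotide excision repair cuts out bulky lesions such as those made by ultraviolet light. Cryptochromes are relatives of photolyases, the light-driven repair enzymes of other organisms, but act in mammals as repressors of the circadian clock.

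The values are log2 signals, a scale inferred from their range, and each fold change rests on it. Every difference is the Cry DKO mean less the WT mean in log2 signal, and was tested with limma across 9515 genes with Benjamini-Hochberg adjustment and a threshold of 0.05. Genes with a mean log2 signal under 6.05, called the floor, were not tested, since dim signals scatter more. The floor left 35 of the 44 measured repair genes, and the median SD within a genotype was 0.12 for these 35 and 0.33 for the 9 below it.

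The arrays had medians of 6.78 to 6.79 and correlated at 0.972 to 0.986 between genotypes and 0.982 to 0.991 within them. Cry1 lay at 5.84 to 6.50 in Cry DKO lines against 6.42 to 7.27 in WT lines, a difference of -0.50 (limma adjusted p = 0.168). Cry2 lay at 6.64 to 7.12 against 6.97 to 7.34, a difference of -0.34 (limma adjusted p = 0.132). Both pairs of groups overlapped, and where these probes lie relative to the deleted parts was not known here, so neither gene checks the labels. All 13 fibroblast markers had a probe set and 10 lay above the floor. Macrophage markers were present in every line and 10 of 17 were higher in Cry DKO lines. Xist and Y-linked genes marked 2 of 4 Cry DKO lines and 1 of 4 WT lines as female.

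Start regions of 5 genes are shown first because they belong to repair genes that are followed through the results. They are the RefSeq start regions (GRCm38.p6) of 4 recombination and Fanconi genes that were higher in Cry DKO lines and of Ercc5, a nucleotide excision gene with a negative difference. Each runs from 250 bases before to 50 bases after the annotated start of the gene. Capitals mark the core of the element bound by E2F, the factor family that switches on genes for DNA replication, searched in its forms TTCCCGC, also TTCGCGC, also TTGCCGC and also TTGGCGC, and the CCAAT box, searched as CCAAT, both on either strand.
Brca1, chr11:101551906-101552205, minus strand: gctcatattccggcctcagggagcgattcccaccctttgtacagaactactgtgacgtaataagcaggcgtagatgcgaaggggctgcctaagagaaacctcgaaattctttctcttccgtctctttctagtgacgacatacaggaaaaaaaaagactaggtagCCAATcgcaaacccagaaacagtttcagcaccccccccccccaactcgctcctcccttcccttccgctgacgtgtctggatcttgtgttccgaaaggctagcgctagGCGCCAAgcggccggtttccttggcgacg
Rad51ap1, chr6:126939538-126939837, minus strand: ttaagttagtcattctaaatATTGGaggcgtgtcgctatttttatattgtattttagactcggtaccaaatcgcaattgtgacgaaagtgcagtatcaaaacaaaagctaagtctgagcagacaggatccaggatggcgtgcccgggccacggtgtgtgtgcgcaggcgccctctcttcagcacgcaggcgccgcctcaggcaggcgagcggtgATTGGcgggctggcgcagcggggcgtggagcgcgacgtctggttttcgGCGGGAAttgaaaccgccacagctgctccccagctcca
Blm, chr7:80534949-80535248, minus strand: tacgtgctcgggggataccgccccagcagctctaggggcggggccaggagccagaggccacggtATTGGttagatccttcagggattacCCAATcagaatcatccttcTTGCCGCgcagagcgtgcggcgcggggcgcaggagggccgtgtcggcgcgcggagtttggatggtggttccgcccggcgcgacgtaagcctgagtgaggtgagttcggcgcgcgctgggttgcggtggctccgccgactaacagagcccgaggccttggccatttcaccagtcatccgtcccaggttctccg
Fanca, chr8:123318527-123318826, minus strand: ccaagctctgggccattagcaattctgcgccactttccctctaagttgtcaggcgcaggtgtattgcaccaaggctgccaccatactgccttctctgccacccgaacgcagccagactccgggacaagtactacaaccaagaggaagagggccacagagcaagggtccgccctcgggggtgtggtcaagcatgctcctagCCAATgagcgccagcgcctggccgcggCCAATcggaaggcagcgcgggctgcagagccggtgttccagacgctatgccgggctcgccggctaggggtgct
Ercc5, chr1:44147494-44147793, plus strand: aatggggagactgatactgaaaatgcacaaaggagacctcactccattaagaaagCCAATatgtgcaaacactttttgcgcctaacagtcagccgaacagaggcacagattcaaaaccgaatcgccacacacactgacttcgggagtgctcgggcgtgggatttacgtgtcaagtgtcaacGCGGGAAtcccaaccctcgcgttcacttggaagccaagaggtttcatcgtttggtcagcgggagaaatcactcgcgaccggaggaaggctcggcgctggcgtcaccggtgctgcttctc

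The E2F core began at base 109 of the Blm region, base 272 of the Brca1 region and base 263 of the Rad51ap1 region, counted from the left end. It also began at base 182 of the Ercc5 region and was not in the letters of the Fanca region. A RefSeq region was given for 37 of the 47 repair genes, and 21 of the 37 held an E2F core (56.8%), against 20.4% of 7796 tested genes and 10.9% of all 27025 genes with such a region. By pathway the core was found in 12 of 19 recombination and Fanconi genes, 3 of 5 end joining genes, 3 of 3 mismatch repair genes, 0 of 5 base excision genes and 3 of 5 nucleotide excision genes. For comparison, 16 of 23 DNA replication genes and 3 of 17 mitosis genes held it. The E-box CACGTG, the element through which cryptochromes repress clock genes, was found in 0 of 19 recombination and Fanconi regions and in 2 of 18 regions of the other pathways, those of Xrcc5 and Lig3, against 12.2% of tested genes. The CCAAT box was found in 22 of 37 repair regions, against 42.9% of tested genes. The CHR element of mitotic genes, searched as TTTGAA, was found in 2 of 37, against 13.9%. These matches describe letters in short windows and are not binding sites.

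Of the 35 tested repair genes, 5 were higher in Cry DKO lines and 0 were lower. Over all 9515 tested genes the background was 9.17% called, 4.95% higher and 4.22% lower. All 5 belong to homologous recombination and the Fanconi pathway: Exo1, Rad51ap1, Blm, Fanca and Brca1. They made up 5 of the 15 tested genes of that group, and the median difference of the 15 was 0.34, against -0.01 over all tested genes. In the other 4 pathways together, 0 of 20 tested genes passed in either direction in limma, 2 had an unadjusted p under 0.05 in each direction (against 12.3% higher and 13% lower of all tested genes), and the median difference was -0.02. Fitted on the spread of each gene alone, Msh6 was the 1 gene of these 20 to pass. Without WT replicate 3 the count of 5 was 3, with Fanca and Brca1 no longer called. The difference between pathways was not itself tested. In bulk samples, more cells in a given state and more RNA per cell cannot be told apart.

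**Figure D1:**
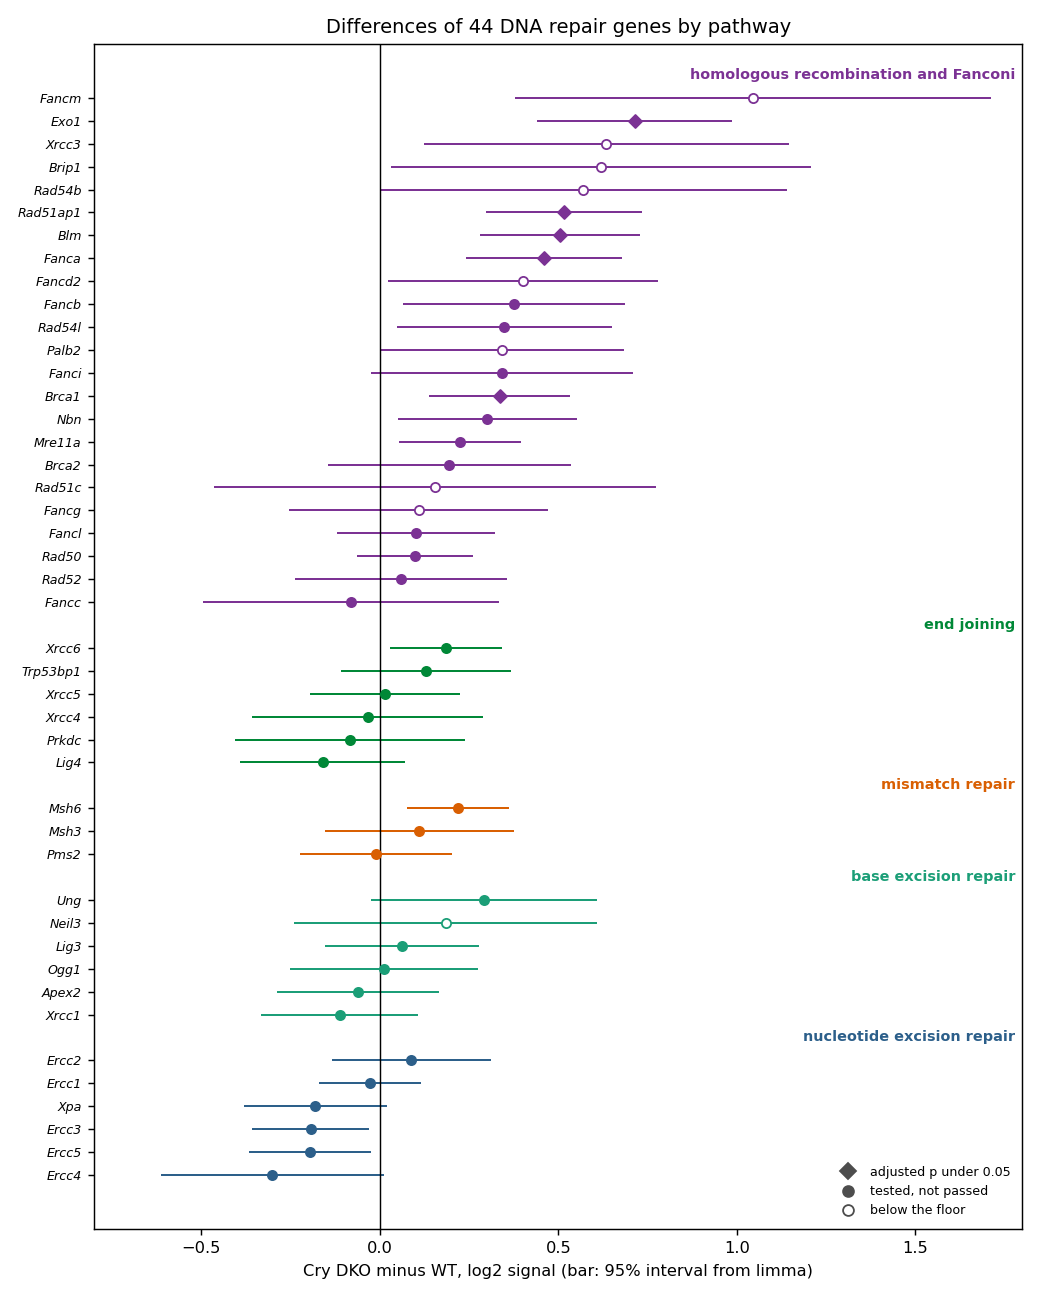
Difference in log2 signal, Cry DKO minus WT, for each of the 44 measured DNA repair genes on the horizontal axis, with genes grouped by pathway down the page and bars for the 95% interval from limma. Diamonds are the 5 genes that passed, filled circles the tested genes that did not and open circles the 9 genes below the floor; 22 of 23 recombination and Fanconi genes lie right of 0 and 5 of 6 nucleotide excision genes lie left of it.

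Exo1 encodes the exonuclease that extends resection, the trimming of a broken end into a single-stranded tail, and it also removes the mismatched strand in mismatch repair. Its log2 signals were 7.41, 7.44, 7.62 and 7.50 in the Cry DKO lines, against 6.90, 6.68, 6.51 and 7.03 in the WT lines. Every Cry DKO line lay above every WT line, and WT lines scattered more. The difference was 0.71 (SE 0.12, limma adjusted p = 0.00667), a fold change of 1.64. It is the largest difference among the tested repair genes. Its other probe sets differed: one above the floor gave 0.20 (limma adjusted p = 0.485 when each probe set was tested) and one with a mean of 2.84, far below the floor, gave -0.60.

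The other tested resection genes encode the complex that first binds and trims a broken end. Mre11a, its nuclease, had 8.33, 8.36, 8.60 and 8.43 in Cry DKO lines, against 8.20, 8.22, 8.25 and 8.16 in WT lines. The genotypes did not overlap, and the difference of 0.22 (SE 0.08) did not pass (limma adjusted p = 0.0946). Nbn, the subunit that recruits the damage-signalling kinase, differed by 0.30 (SE 0.11, limma adjusted p = 0.125), also without overlap. Rad50, the ATPase that tethers the ends, had a difference of 0.10 (95% interval -0.06 to 0.26).

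Rad51ap1 encodes a partner of the recombinase that helps the broken end invade its template. Its log2 signals were 7.80, 7.75, 7.74 and 7.70 in Cry DKO lines, against 7.46, 7.16, 7.25 and 7.06 in WT lines. All Cry DKO lines lay within 0.1 of each other and above the highest WT line. The difference was 0.51 (SE 0.10, limma adjusted p = 0.0109), a fold change of 1.43. All 3 other probe sets of Rad51ap1 gave similar values, 0.39, 0.49 and 0.57, and the one of these above the floor passed when each probe set was tested (limma adjusted p = 0.0298).

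Brca1 encodes the tumour suppressor that acts with BARD1 as a ubiquitin ligase and promotes resection and loading of the recombinase. It had 7.38, 7.50, 7.35 and 7.29 in Cry DKO lines, against 7.07, 7.09, 7.03 and 6.98 in WT lines. The lowest Cry DKO line lay above the highest WT line, and the difference was 0.34 (SE 0.09, limma adjusted p = 0.039), a fold change of 1.26. Its 3 other probe sets, all below the floor, gave 0.33, 0.55 and 0.30. The Brca1 call is close to the threshold: it was lost in 7 of 8 fits with 1 array left out, with differences of 0.30 to 0.35 in those 7 and adjusted p of up to 0.0953.

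**Figure D2:**
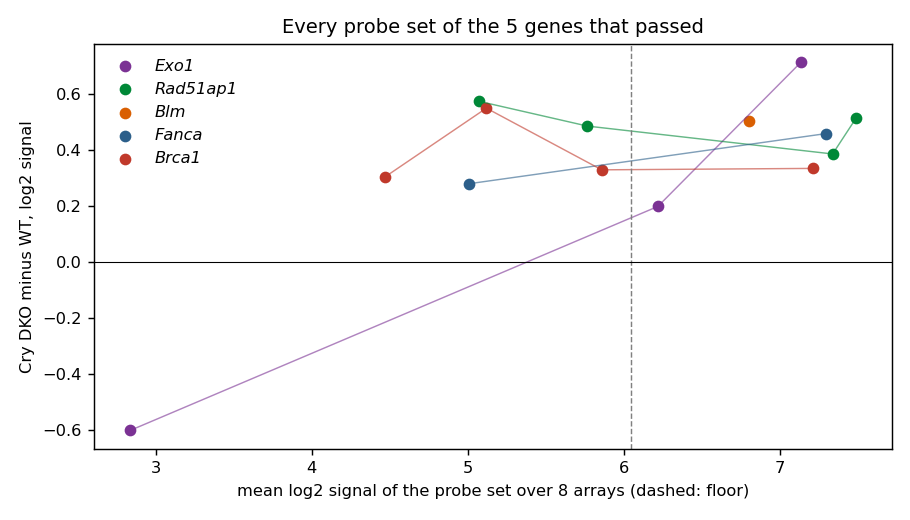
Every probe set of the 5 genes that passed, with its mean log2 signal over the 8 arrays on the horizontal axis and its difference, Cry DKO minus WT in log2 signal, on the vertical axis; lines join probe sets of 1 gene and the dashed line is the floor. Probe sets of Rad51ap1, Brca1 and Fanca all lie above 0, while those of Exo1 range from -0.60 at the dim end to 0.71 at the bright end.

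The remaining genes that load the recombinase or drive strand exchange had positive differences that did not pass. Rad54l, a motor protein that remodels the recombination filament, had 6.72, 7.10, 6.74 and 7.00 in Cry DKO lines, against 6.71, 6.52, 6.28 and 6.64 in WT lines. Its genotypes were separated by a narrow margin, and the difference was 0.35 (SE 0.14, limma adjusted p = 0.138). Brca2, which places the recombinase on single-stranded DNA, had a difference of 0.19 (95% interval -0.14 to 0.53) with overlapping genotypes. Rad52, an annealing protein, had a difference of 0.06 (95% interval -0.23 to 0.35), and its other probe set above the floor gave -0.17.

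Blm encodes a helicase of the RecQ family that takes recombination intermediates apart without exchange of chromosome arms. Its log2 signals were 7.00, 7.02, 7.09 and 7.11 in Cry DKO lines, against 6.66, 6.60, 6.43 and 6.51 in WT lines. No line of one genotype came within 0.3 of the other genotype. The difference was 0.50 (SE 0.10, limma adjusted p = 0.0142), a fold change of 1.42, from the only probe set of the gene.

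Fanca encodes a subunit of the Fanconi core complex, the ubiquitin ligase that marks crosslinked forks. It had 7.47, 7.62, 7.50 and 7.53 in Cry DKO lines, against 7.24, 7.13, 6.89 and 7.03 in WT lines. The groups were apart, and the difference was 0.46 (SE 0.10, limma adjusted p = 0.0185), a fold change of 1.38. Without WT replicate 3, the lowest line, the call ended (limma adjusted p = 0.0531), and with the mean of both probe sets the difference was 0.37 (limma adjusted p = 0.117).

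Fanca was the 1 gene to pass of 4 tested core complex genes. Fancb, a subunit of its catalytic module, had 6.57, 6.34, 6.66 and 6.82 in Cry DKO lines, against 6.32, 5.99, 6.27 and 6.31 in WT lines, which differ by 0.38 (SE 0.14, limma adjusted p = 0.123). Fancl, the ligase subunit itself, had a difference of 0.10 (95% interval -0.12 to 0.32). Fancc had the lowest difference of the group and the only negative one: 6.23, 6.06, 5.85 and 6.44 in Cry DKO lines, against 6.38, 6.42, 6.37 and 5.74 in WT lines, or -0.08 (95% interval -0.49 to 0.33). Fanci, a target of the ligase with Fancd2, differed by 0.34 (SE 0.17, limma adjusted p = 0.228) with overlapping genotypes.

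Altogether 14 of the 15 tested recombination and Fanconi genes had a positive difference, where 48.5% of all tested genes did. The genotypes did not overlap, with Cry DKO higher, for 9 of the 15, against a background of 8.31%. The same background for Cry DKO lower was 8.44%, and 0 of the 15 were of that kind.

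**Figure D3:**
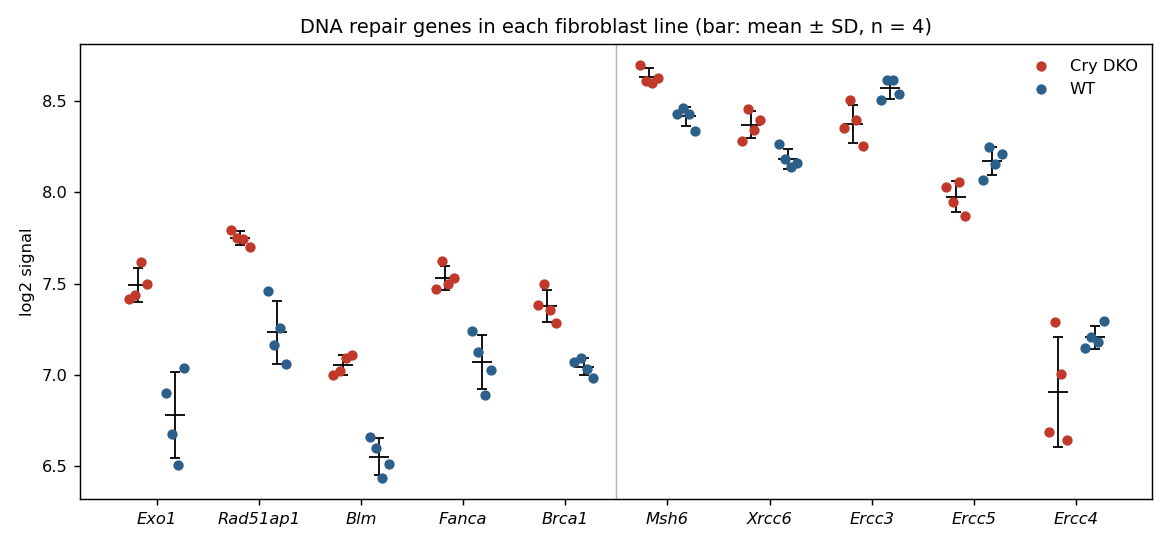
Log2 signal of 10 DNA repair genes in each line, with Cry DKO lines in red to the left of WT lines in blue and bars for the mean ± SD of 4 lines. Left of the grey line are the 5 genes that passed, each without overlap between genotypes; right of it are 5 genes of other pathways that did not pass, of which Ercc4 overlaps between genotypes.

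The 8 recombination and Fanconi genes below the floor all had positive differences too in the probe set used, from 0.11 to 1.04, but with larger scatter and no main test. Their dimmer probe sets were mixed, with 0.74 and -1.59 for Fancd2, -0.25 for Fancg and 0.47 for Xrcc3. The largest difference in the probe sets used was that of Fancm, the motor protein that anchors the core complex to DNA. It had 5.66, 5.46, 6.69 and 6.73 in Cry DKO lines, against 5.36, 4.61, 5.00 and 5.41 in WT lines. Cry DKO lines fell into a lower and a higher pair, and the lower pair lay just above the highest WT line. The difference of 1.04 did not pass in the fit with no floor (limma adjusted p = 0.0654), and the other probe set of Fancm, dimmer still, gave 0.01.

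Xrcc3, a relative of the recombinase, had a difference of 0.63, Brip1, a helicase that binds BRCA1, one of 0.62, and Rad54b, a motor protein related to Rad54l, one of 0.57. Fancd2, the partner of Fanci, differed by 0.40 and Palb2, the bridge between BRCA1 and BRCA2, by 0.34. Rad51c, another relative of the recombinase, differed by 0.15 and Fancg, a core complex subunit, by 0.11. None of these passed in the fit with no floor (limma adjusted p of 0.141 to 0.813). Palb2 (mean 6.04) and Fancd2 (mean 6.00) lay just under the floor and Fanci (mean 6.13) just above it.

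End joining genes were centred near 0, with a median difference of -0.01 over 6 tested genes. The highest was Xrcc6, a subunit of the Ku ring that slides onto broken ends, with 8.28, 8.46, 8.35 and 8.40 in Cry DKO lines, against 8.26, 8.18, 8.14 and 8.16 in WT lines. The groups were narrowly apart, and the difference of 0.18 (SE 0.07) did not pass (limma adjusted p = 0.128). Its Ku partner Xrcc5 had a difference of 0.01 (95% interval -0.19 to 0.22).

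The lowest end joining gene was Lig4, the ligase that seals the break, with 7.12, 7.15, 7.36 and 7.23 in Cry DKO lines, against 7.29, 7.21, 7.49 and 7.51 in WT lines. Its genotypes overlapped, with a difference of -0.16 (95% interval -0.39 to 0.07). Xrcc4, the scaffold of that ligase, had a difference of -0.03 (95% interval -0.35 to 0.28), and Prkdc, the kinase that Ku recruits, one of -0.08 (95% interval -0.40 to 0.24). Trp53bp1, which protects ends from resection, had a difference of 0.13 (95% interval -0.11 to 0.36). In limma 0 of the 6 passed, and 1 had an unadjusted p under 0.05.

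Among the 3 mismatch repair genes, Msh6, which recognises base mismatches, came closest to the threshold. It had 8.70, 8.61, 8.60 and 8.63 in Cry DKO lines, against 8.43, 8.46, 8.43 and 8.34 in WT lines. Every Cry DKO line lay above every WT line, and the difference was 0.22 (SE 0.06, limma adjusted p = 0.0564). Msh3, which recognises small loops, had a difference of 0.11 (95% interval -0.15 to 0.37). Pms2, the nuclease subunit, had 7.18, 7.19, 7.26 and 7.13 in Cry DKO lines, against 7.40, 7.17, 7.13 and 7.12 in WT lines. That is a difference of -0.01 (95% interval -0.22 to 0.20), and WT replicate 1 was the highest of the 8 lines.

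Each of the base excision genes overlapped between genotypes. Ung, which cuts uracil out of DNA, had the highest difference, with 6.50, 6.71, 6.55 and 7.00 in Cry DKO lines, against 6.26, 6.63, 6.32 and 6.40 in WT lines, or 0.29 (SE 0.14, limma adjusted p = 0.232). Xrcc1, the scaffold of strand-break repair, had the lowest, with 7.59, 7.77, 7.59 and 7.82 in Cry DKO lines, against 7.90, 7.94, 7.60 and 7.79 in WT lines, or -0.11 (95% interval -0.33 to 0.10). Lig3, the ligase held by Xrcc1, had a difference of 0.06, Ogg1, which removes oxidised guanine, one of 0.01 and Apex2, an endonuclease for abasic sites, one of -0.06. Neil3, another glycosylase, lay below the floor with a difference of 0.18. In limma 0 of the 5 tested genes passed, and 0 had an unadjusted p under 0.05.

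Nucleotide excision genes had mostly negative differences, and none passed. The median of the 6 was -0.19, and 5 of the 6 were negative in the probe set used, where 48.5% of all tested genes were positive. The 13 other nucleotide excision genes of the wider list described below went the other way. Of these, 10 had a positive difference, with a median of 0.05. Ercc3, a helicase of the factor that opens DNA around the lesion, had 8.35, 8.51, 8.40 and 8.26 in Cry DKO lines, against 8.51, 8.62, 8.62 and 8.54 in WT lines. The highest Cry DKO line lay just under the lowest WT line, and the difference was -0.19 (SE 0.07, limma adjusted p = 0.126).

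Ercc5, one of the nucleases that cut beside the lesion, had 8.03, 7.95, 8.06 and 7.87 in Cry DKO lines, against 8.07, 8.25, 8.16 and 8.21 in WT lines. These groups were also narrowly apart, with a difference of -0.19 (SE 0.08, limma adjusted p = 0.141). Genes whose groups did not overlap with Cry DKO lower made up 2 of the 6, against the background of 8.44%, and the same 2 had an unadjusted p under 0.05, against 13% of all tested genes that were lower.

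Ercc4, the other nuclease, had the lowest difference of the group, with 6.68, 7.29, 7.00 and 6.64 in Cry DKO lines, against 7.14, 7.21, 7.18 and 7.29 in WT lines. Cry DKO replicate 2 matched the highest WT line while replicates 1 and 4 lay well under all WT lines, and the difference was -0.30 (SE 0.14, limma adjusted p = 0.21). Its other probe set above the floor gave -0.07. Xpa, which verifies the lesion and cycles with the clock in mouse liver, had 7.25, 7.25, 7.40 and 7.32 in Cry DKO lines, against 7.33, 7.54, 7.49 and 7.59 in WT lines. The genotypes overlapped through WT replicate 1, with a difference of -0.18 (95% interval -0.38 to 0.02).

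Ercc1, the partner of Ercc4, had a difference of -0.03 (95% interval -0.17 to 0.11), and its other probe set, also above the floor, gave 0.04. Ercc2, the second helicase of the opening factor, had the highest of the group, with 7.19, 7.08, 6.99 and 7.02 in Cry DKO lines, against 7.07, 7.06, 6.83 and 6.97 in WT lines, or 0.09 (95% interval -0.13 to 0.31).

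**Figure D4:**
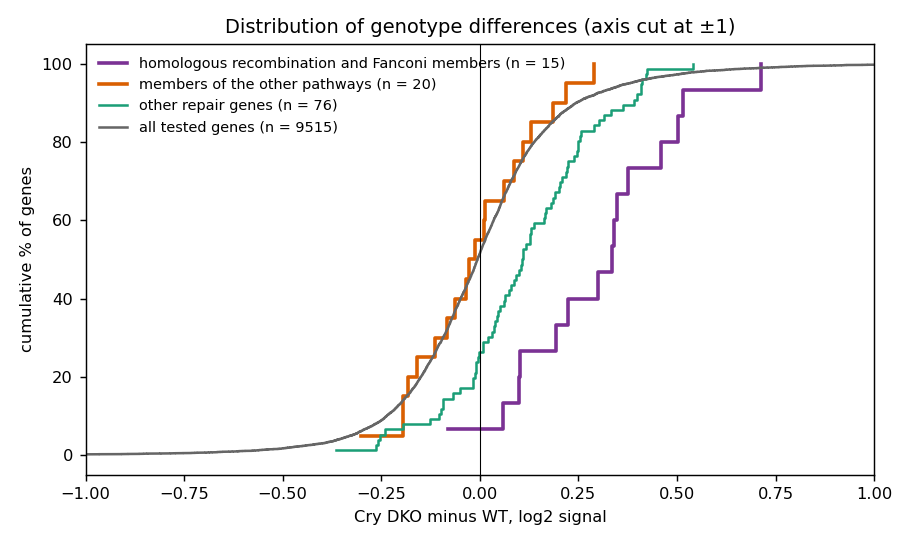
Cumulative share of genes, in percent, against the difference in log2 signal, Cry DKO minus WT, for 15 recombination and Fanconi genes, 20 genes of the other 4 pathways, 76 other repair genes and all 9515 tested genes. The curve of the other pathways follows that of all genes, with medians of -0.02 and -0.01, while the recombination and Fanconi curve lies to the right with a median of 0.34.

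A wider list of 102 other repair genes put the chosen ones in context. Of 76 that were tested, 10 were higher and 2 lower in Cry DKO lines, 13.2% higher against the background of 4.95%, with a median difference of 0.11. Among recombination and Fanconi genes of this list, 5 of 22 were higher. Usp1, which removes the ubiquitin mark from the Fanconi targets, was higher by 0.41 (SE 0.05, limma adjusted p = 0.00197), and Rpa1 and Rpa2, subunits of the complex that coats single-stranded DNA, by 0.39 and 0.42. The other two were Ube2t, the conjugating enzyme of the core complex, and Eme1, a nuclease subunit, higher by 0.42 and 0.54, and these are named after their values were seen.

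In base excision repair, Parp1, the sensor of strand breaks, was higher by 0.30 (SE 0.06, limma adjusted p = 0.00913) and Fen1, the flap nuclease shared with replication, by 0.36. Other Parp1 probe sets above the floor gave 0.16 and 0.49 (limma adjusted p = 0.419 and 0.0065 when each probe set was tested). The other Fen1 probe set gave 0.36 (limma adjusted p = 0.181 in the same fit). Polb, the gap-filling polymerase, was lower by 0.37 (SE 0.07, limma adjusted p = 0.0136), with 8.84 ± 0.10 in Cry DKO lines and 9.20 ± 0.08 in WT lines (SD, n = 4 each), and with the mean of its probe sets the difference was -0.19 (limma adjusted p = 0.131). Lig1, the replicative ligase listed with mismatch repair, was higher by 0.40. The damage-signalling genes Chek1, a checkpoint kinase, and Hus1, a checkpoint clamp subunit, were higher by 0.41 and 0.29. They were 2 of 14 tested (14.3%), against the background of 4.95% higher. The other Chek1 probe set above the floor gave 0.36 (limma adjusted p = 0.266 when each probe set was tested). Parp3, listed with end joining, was lower by 0.25. Its other probe sets, also above the floor, gave -0.06 and -0.03 (limma adjusted p = 0.650 and 0.896 when each probe set was tested). Leaving out 1 array ended the call in 8 of 8 fits for Hus1, in 7 for Chek1, Ube2t and Eme1, in 6 for Lig1 and Parp3 and in 3 for Rpa2, and in 0 for Usp1, Rpa1, Parp1, Fen1 and Polb. None of 13 other nucleotide excision genes, 6 translesion synthesis genes and 3 direct reversal genes passed in limma. At an unadjusted p under 0.05 they had, in that order, 1 higher, 1 lower and 1 higher. Over all tested genes these shares were 12.3% higher and 13% lower.

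Averaged over its 15 tested genes, the recombination and Fanconi group had 7.25, 7.29, 7.27 and 7.30 in Cry DKO lines, against 7.07, 6.99, 6.89 and 6.98 in WT lines. The Cry DKO lines were close together, and WT replicate 1 was the highest and WT replicate 3 the lowest of the WT lines. Without the 5 genes that passed, the mean of the other 10 was 7.16 to 7.24 in Cry DKO lines against 6.92 to 7.07 in WT lines, still without overlap. In the nucleotide excision mean the highest Cry DKO line was level with the lowest WT line, with 7.86, 7.96, 7.92 and 7.76 in Cry DKO lines, against 7.96, 8.05, 7.98 and 8.05 in WT lines.

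Genes of the cell cycle moved in the same lines. The mean over 23 DNA replication genes was 9.01 to 9.08 in Cry DKO lines and 8.56 to 8.72 in WT lines, and 19 of the 23 were higher, with a median difference of 0.41. Over 21 mitosis genes it was 9.18 to 9.22 in Cry DKO lines and 8.68 to 8.83 in WT lines, and 19 of the 21 were higher, with a median of 0.45. Within WT lines, replicate 1 was again the highest and replicate 3 the lowest for both lists. Within Cry DKO lines, replicate 4 was the highest in the recombination and Fanconi mean (7.300, with replicate 2 at 7.295). It was the lowest in the replication mean (9.01) and in the mitosis mean (9.176, with replicate 3 at 9.177). The Cry DKO lines lay close together in these means, with SDs of 0.024, 0.028 and 0.023, so their order says little. The part that the share of cycling cells had in the repair gene differences was not tested.

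Macrophage markers moved with the genotypes too: all 17 had positive differences in the probe set used, and their median was 0.78. Of the 17, 10 passed, against a background of 4.95% higher. Their summed linear signal was 12760 to 23439 in Cry DKO lines, against 7926 to 12135 in WT lines, and no marker was at 0. Their mean log2 signal was 9.94, 9.50, 8.99 and 9.27 in Cry DKO lines, against 8.89, 8.29, 8.58 and 8.85 in WT lines, also without overlap. Replicate 1 had the highest macrophage mean in both genotypes, and it had the lowest recombination and Fanconi mean of the Cry DKO lines and the highest of the WT lines.

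Fibroblast markers lay on the other side: all 13 had negative differences in the probe set used, where 48.5% of all tested genes were positive. Of the 10 tested, 1 passed, against a background of 4.22% lower, with a median of -0.11 over the 10. Other probe sets were mixed, with 0.15 for Col3a1 and -0.45 for Pdgfrb. The mean of the 10 was 12.45, 12.46, 12.26 and 12.25 in Cry DKO lines, against 12.48, 12.65, 12.47 and 12.53 in WT lines, narrowly apart. The 1 that passed was Fap, a surface protease of fibroblasts named after its value was seen, which differed by -0.69 (SE 0.16, limma adjusted p = 0.0262). Its call ended in 4 of 8 fits with 1 array left out. The part of either marker list in the repair gene differences was not tested.

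**Figure D5:**
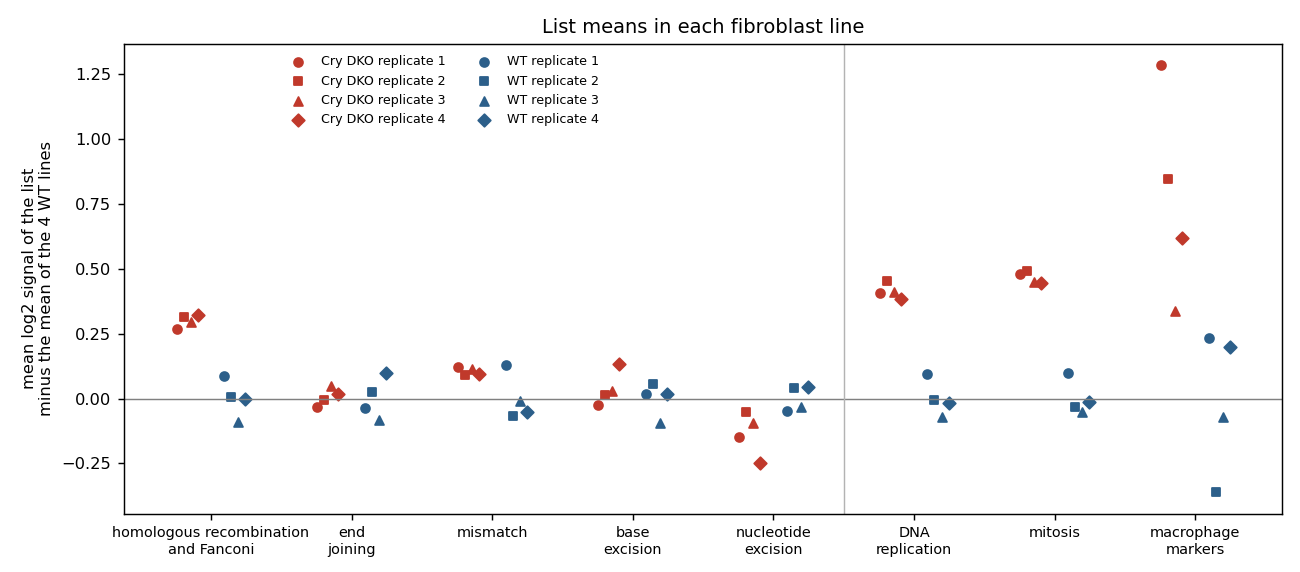
Mean log2 signal of each list in each line, minus the mean of the 4 WT lines, for the 5 repair pathways on the left and for DNA replication genes, mitosis genes and macrophage markers on the right; symbols stand for replicate numbers, red for Cry DKO and blue for WT. Recombination and Fanconi genes, replication genes and mitosis genes separate the genotypes with all Cry DKO lines close together; macrophage markers separate them too (means of 8.99 to 9.94 in Cry DKO lines and 8.29 to 8.89 in WT lines before the WT mean is taken off), with a wider spread within each genotype.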

How the data were processed

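Total RNA of 8 fibroblast lines was hybridised to an Affymetrix 3′ expression array, per the labels. The deposited values are one log2 value per probe set. The log2 base is inferred from their range (0.0675 to 14.3). Per the submitters' processing notes, GCOS was used, with no version named. Probes were summarised and arrays normalised by methods not given in the sources used here, and values were used as deposited.

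The table held 30506 probe sets. Of these, 24838 were paired with 1 gene by the platform's annotation, 658 with several, 4949 are unnamed here and 61 are controls. Only those paired with 1 gene were used. Symbols were checked through gene identifiers in the RefSeq table of GRCm38.p6 (24757 found). For each gene the probe set with the highest mean was kept, and genes under the 40th percentile of all probe set means (6.05) were left out, which gave 9515 genes.

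The 2 genotypes were tested against each other in limma 3.58.1 under R 4.3.3 (intensity trend, no covariate, Benjamini-Hochberg over all 9515 genes). The spread is that between independent lines. In simulated arrays that took mean and spread from each of the 9515 genes, a change of 0.5 in log2 signal was called in 66.4% of genes, a change of 0.25 in 16.8%, and no change in 0.0945%. Few genes were changed there (250 of each size against 46575 unchanged, over 5 runs), with independent noise. In the data 9.17% of genes were called, so these rates may not carry over. Members and lists were chosen with earlier results of these data known. Named genes are all members, with values per line for those that passed and for the extremes of each pathway (Xpa, Ercc3, Ercc5, Rad54l, Mre11a and Fancb were added after their values were seen), and of the other repair lists up to 3 called genes of smallest p.

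Alternatives were a replicate block, other normalisations, floors, probe set rules, empirical Bayes settings, array weights, thresholds, a term for sex and leaving out each array.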

Additional observations from a re-analysis of the deposited data

Results flagged for a closer look

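In 7 of the 88 groups of 4 lines examined (44 genes in each genotype), 1 line stood far from the other 3, by a gap above the 95% critical value of the Dixon ratio (gap over range). Chance gives about 1 in 20. The values are log2 signals. In Cry DKO replicate 1, Lig3 had 7.76, against 8.02 to 8.05 in the other Cry DKO lines. In Cry DKO replicate 4, Ercc1 had 9.47, against 9.65 to 9.68 in the others. In WT replicate 4, Brip1 had 4.45 (5.30 to 5.42 in the other WT lines), Fancc had 5.74 (6.37 to 6.42 in the others) and Xrcc5 had 7.46 (7.19 to 7.22 in the others). Fancb had 5.99 in WT replicate 2, against 6.27 to 6.32 in the other WT lines. Prkdc had 7.00 in WT replicate 3, against 7.33 to 7.35 in the other WT lines. None of the 5 genes that passed was among them.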

How the results depend on the processing

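The count of 5 repair genes higher in Cry DKO lines, all of recombination and the Fanconi pathway, stayed within 1.5 times under most of the 22 alternatives. It was 3 to 5 when 1 array was left out, with 3 without WT replicate 3. It was 1 with the floor at the 60th percentile, which leaves fewer genes to test, and 1 at a threshold of 0.01. With the mean of probe sets it was 3, of which 2 were recombination and Fanconi genes and 1 was Msh6. In that setting Fanca lost its call, while Exo1 and Brca1 fell below the floor and were not tested. Mismatch repair had 1 gene higher, Msh6, with the mean of probe sets, on the spread of each gene alone and at a threshold of 0.10, and 0 otherwise. The count of members lower in Cry DKO lines was 0 in every alternative, and counts higher were 0 for end joining, base excision and nucleotide excision genes. Replicate numbers were not taken to pair the lines, as no pairing was stated. Deviations of same-numbered lines from their group means correlated at 0.359, 0.116, 0.231 and -0.0111. Cry DKO replicates 1, 2 and 3 each correlated best with the WT line of the same number, and replicate 4 with WT replicate 3 (0.118). A structure shared by some same-numbered lines is therefore possible and was not tested. With the replicate block 4 members were higher, and 1050 of all genes were called. Brca1 lost its call there (adjusted p = 0.0507), with no floor (0.0576) and with the sex term (0.0646). Exo1 kept its call in the 20 alternatives in which it was tested, including a threshold of 0.01. Rad51ap1 and Blm lost theirs at a threshold of 0.01 alone, and Fanca at that threshold, with the mean of probe sets and without WT replicate 3.

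Other repair genes gave 10 higher in the main setting, 4 to 7 without 1 array (4 without WT replicate 2 or 3, 5 without WT replicate 4 or Cry DKO replicate 2, 6 without Cry DKO replicate 3 or 4), 6 on the spread of each gene alone, 5 with the sex term and 3 at a threshold of 0.01. The 2 lower became 1 or 2 without 1 array (2 without WT replicate 2 or Cry DKO replicate 1), 1 with no intensity trend, on the spread of each gene alone or with the sex term, and 0 with the mean of probe sets or at a threshold of 0.01. Over all genes 873 passed, 382 to 684 without 1 array (382, 470 and 489 without WT replicates 3, 2 and 1, 559 and 571 without Cry DKO replicates 2 and 3), 317 on the spread of each gene alone, 210 at a threshold of 0.01, 1436 at 0.10 and 520 with the sex term. The cause of these changes was not tested. Signal over background limits the dim genes: the 9 members below the floor had a median SD of 0.33, against 0.12 for the tested ones. No call reversed its direction.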
